A study of Mus musculus with 16 samples.

Results

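The 9 genes described here encode components and receptors of the complement system: the 3 chains of C1q (*C1qa*, *C1qb* and *C1qc*), *C3*, *C4b*, *Cfb*, *Cfp*, *C3ar1* and *C5ar1*. They are the rows of the deposited table that carry these symbols, 9 of 55492 listed genes, and all 9 passed the filter of a mean normalized count of at least 10, as did 20576 genes in all. The measurements are RNA-seq of 16 left ventricles of C57BL/6 male mice aged 8 to 12 weeks, in 6 groups. Control PKM2fl/fl mice carried the floxed *Pkm* allele and PKM2-/- mice were global knockouts, made by germline excision of the *Pkm2* exon with Cre under a CMV promoter, after which Cre was bred out. PKM2 was therefore missing from every cell type, leukocytes included. Each genotype had 2 hearts without surgery (baseline), 3 hearts 3 days after sham surgery, and 3 hearts 3 days after myocardial infarction (MI) by permanent ligation of the left anterior descending artery. No infarct size was given in the labels, and the pulverized ventricle was sequenced as bulk tissue.

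Complement is a cascade of blood and tissue proteins that marks microbes, immune complexes and dying cells for removal. The classical pathway starts with C1q and passes through C4 and C2 to C3, the alternative pathway amplifies C3 cleavage with factor B under stabilization by properdin, and the small fragments C3a and C5a act through the receptors C3aR and C5aR1 on leukocytes. In the injured heart, macrophages are a known source of C1q, whereas C3, C4 and factor B are acute-phase genes that many cell types, fibroblasts and hepatocytes among them, can express.

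The C1q genes lie side by side on the reverse strand of chromosome 4 in GRCm38.p6, the assembly that corresponds to the mm10 build of the files: *C1qb* at chr4:136880126-136886200, *C1qc* at chr4:136889801-136892936 and *C1qa* at chr4:136895916-136898844. In RefSeq, 3600 bases separate the first pair and 2979 the next, with 0 genes between them. *C4b* (chr17:34728139-34743902), *Cfb* (chr17:34856374-34862514) and *C3* (chr17:57203967-57228136) are on chromosome 17, *Cfp* is at chrX:20925454-20931555, *C3ar1* at chr6:122847140-122856157 and *C5ar1* at chr7:16246743-16259540.

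Patterns of 2 factors active in myeloid or inflamed cells were searched on both strands of the 250 bases before each RefSeq gene start: the PU.1 core GAGGAA and the C/EBP pattern TTNNGNAA. Of the 9 genes, 6 had a promoter in the RefSeq table of GRCm38.p6, and those of *C1qa*, *C4b* and *Cfb* were not analysed here. The 4 promoters shown are those with a match to either pattern. Those of *C3ar1* and *Cfp*, also highest after MI, held no match and are not printed. Of the 4 genes, *C1qb* and *C1qc* are neighbours whose counts moved in the same steps, *C3* was highest after sham surgery and *C5ar1* after MI. Capitals mark every match to either pattern, and the last base printed is the one before the start that the promoter table gives, which for *C1qc* and *C5ar1* lies inside the span given above. The windows are chr4:136886201-136886450 for *C1qb*, chr4:136892915-136893164 for *C1qc*, chr17:57228137-57228386 for *C3* and chr7:16259339-16259588 for *C5ar1*, all read on the reverse strand.
C1qb: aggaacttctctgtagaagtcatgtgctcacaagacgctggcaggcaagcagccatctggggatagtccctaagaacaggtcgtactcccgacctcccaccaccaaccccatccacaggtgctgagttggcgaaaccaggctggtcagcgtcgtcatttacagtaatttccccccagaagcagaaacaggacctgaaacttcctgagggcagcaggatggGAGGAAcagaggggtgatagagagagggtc
C1qc: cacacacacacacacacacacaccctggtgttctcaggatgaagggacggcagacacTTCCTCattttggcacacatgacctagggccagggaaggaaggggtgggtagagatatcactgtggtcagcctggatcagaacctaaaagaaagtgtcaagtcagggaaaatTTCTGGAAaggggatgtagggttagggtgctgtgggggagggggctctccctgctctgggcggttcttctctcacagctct
C3: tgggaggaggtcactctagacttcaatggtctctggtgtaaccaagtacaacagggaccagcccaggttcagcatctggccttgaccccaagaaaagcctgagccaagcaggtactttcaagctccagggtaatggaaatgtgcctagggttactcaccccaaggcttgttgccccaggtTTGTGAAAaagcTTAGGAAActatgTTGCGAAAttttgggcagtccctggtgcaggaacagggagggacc
C5ar1: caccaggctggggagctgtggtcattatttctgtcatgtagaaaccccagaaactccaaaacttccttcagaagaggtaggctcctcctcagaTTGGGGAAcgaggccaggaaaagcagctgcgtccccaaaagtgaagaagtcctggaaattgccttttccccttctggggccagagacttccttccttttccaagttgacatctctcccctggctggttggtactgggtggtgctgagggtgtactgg
The PU.1 core was in 2 of the 6 promoters, from -30 to -25 in *C1qb* and, on the other strand, from -193 to -188 in *C1qc*, and in 23.3% of all 32851 promoters. The C/EBP pattern occurred 3 times in *C3*, at -70 to -63, -58 to -51 and -45 to -38, and once each in *C1qc* (-81 to -74) and *C5ar1* (-157 to -150). It was in 36.8% of all promoters, and 2.61% of all promoters held 3 or more matches. No match overlapped another.

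Libraries held 20623769 to 71855101 reads, and each of the 9 genes had from 26 reads (*Cfb*, PKM2-/- baseline 2) to 9346 reads (*C3*, PKM2fl/fl sham 1) in a library. Values are normalized counts, reads divided by the DESeq2 size factor of the library. Reads were summed on 3 rRNA loci, *CT010467.1* and the mitochondrial *mt-Rnr1* and *mt-Rnr2*. These loci held 38.57 to 42.97% of reads in PKM2-/- and 17.21 to 22.06% in PKM2fl/fl baseline libraries. Over all libraries they held 15.38 to 44.51%. *Pkm*, counted over both splice forms and so no check of the excised exon, was at 9108 to 9602 in PKM2fl/fl and 11981 to 12984 in PKM2-/- baseline hearts. The 8 ventricular cardiomyocyte markers were present in every group, at summed counts of 944428 to 1194888 in baseline and sham hearts and 191611 to 455102 after MI. The hepatocyte markers summed to at most 21.2, with *Serpina1a* at 0 in 5 of the 6 groups, and none of the adipocyte or hepatocyte markers passed the filter.

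After MI, transcripts of the anaphylatoxin receptors, properdin and C1q were higher than after sham surgery in both genotypes, while *C3* and *C4b* were lower on average. "Rose" and "fell" are used below for an adjusted p under 0.05 with at least a 2-fold change. In PKM2fl/fl hearts, 4 of the 9 genes rose and 0 fell, where 23.5% of all genes tested changed, 12.4% upward. In PKM2-/- hearts, the same 4 genes (*C1qb*, *Cfp*, *C3ar1* and *C5ar1*) rose and *C4b* fell, where 28.8% of all genes changed, 14.5% upward and 14.3% downward. The median log2 fold change over the 9 genes was 0.95 in PKM2fl/fl and 0.98 in PKM2-/- hearts, beside -0.0025 and 0.01 over all genes. Counting genes by adjusted p alone, 7 and 8 of the 9 passed, against 50.1% and 56.8% of all genes. Sham and MI hearts did not overlap for 8 of the 9 genes in each genotype. The same held for 12139 of the 20576 genes tested in PKM2fl/fl and 12811 in PKM2-/- hearts, so such separation was common.

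**Figure D1:**
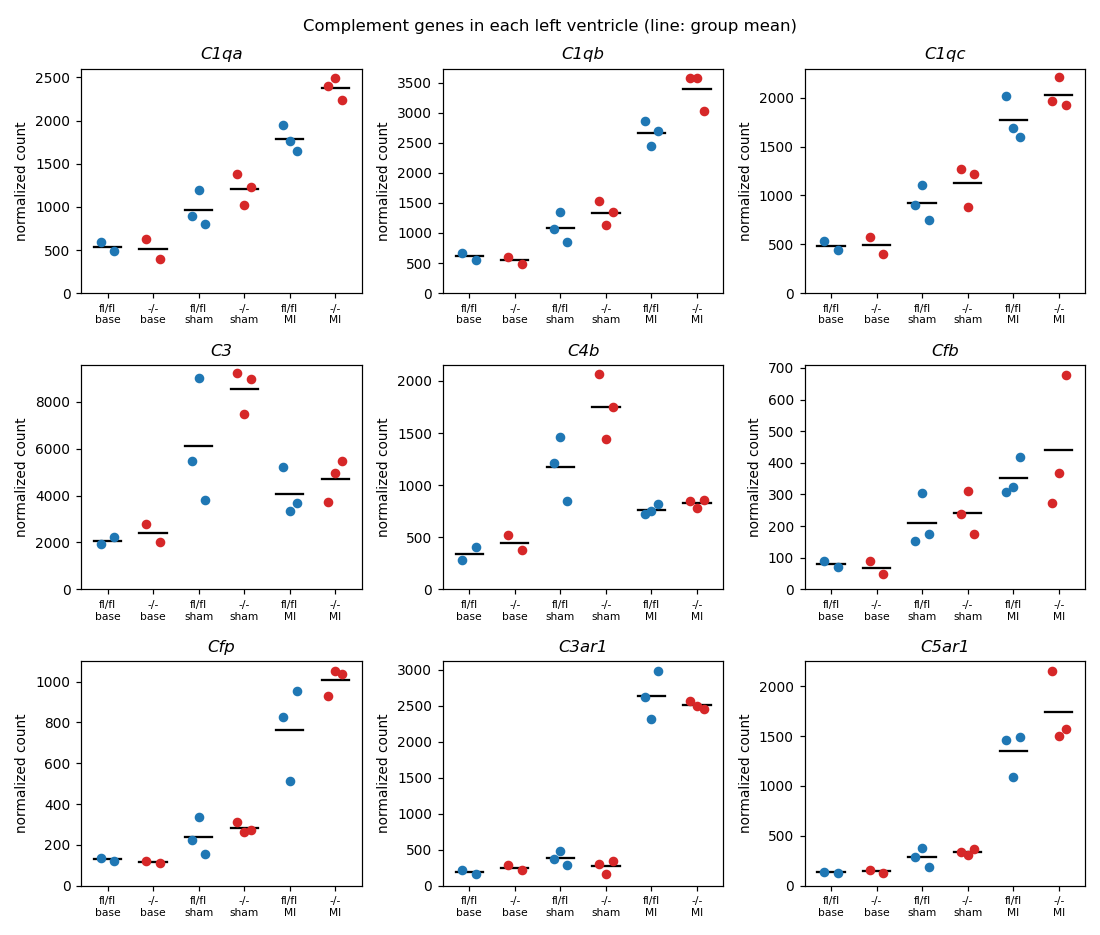
Normalized counts (vertical axis, from 0) of the 9 complement genes in each of the 16 left ventricles, by genotype and treatment on the horizontal axis, with a line at each group mean. *C3ar1*, *C5ar1* and *Cfp* are highest in the 6 MI hearts, whereas the highest *C3* and *C4b* counts are in sham hearts.

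The C3a and C5a receptors had the largest changes. *C3ar1*, which encodes the receptor for C3a, was at 220 and 165 in PKM2fl/fl baseline hearts, at 374, 488 and 283 after sham surgery and at 2623, 2313 and 2979 after MI. The PKM2-/- counts were 287 and 218 at baseline, at 299, 165 and 339 after sham surgery and at 2569, 2500.4 and 2451 after MI. All 6 MI hearts were above all 10 other hearts, whose ranges overlapped one another in every neighbouring pair of groups. The log2 fold change over sham was 2.81 ± 0.24 (SE, n = 3 per group, adjusted p = 4.3e-07) in PKM2fl/fl and 3.29 ± 0.24 (adjusted p = 8.01e-08) in PKM2-/- hearts.

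*C5ar1* encodes the receptor for C5a, which draws neutrophils and monocytes to injured tissue. Its counts were 139 and 129 at baseline, 291, 378 and 186 after sham surgery and 1462, 1089.8 and 1489 after MI in PKM2fl/fl hearts. Those of PKM2-/- hearts were 162 and 123 at baseline, 334, 308 and 370.02 after sham surgery and 2151, 1499 and 1569.6 after MI. Baseline, sham and MI hearts formed steps that did not overlap, and within MI every PKM2-/- heart was above every PKM2fl/fl heart. The log2 fold change of MI over sham was 2.28 ± 0.22 (adjusted p = 1.27e-06) in PKM2fl/fl and 2.35 ± 0.22 (adjusted p = 6.73e-07) in PKM2-/- hearts. Per kb of the canonical transcript, the ratio of *C5ar1* to *C3ar1* was 2.15 to 3.69 in PKM2-/- sham hearts, 1.30 to 1.53 in PKM2fl/fl sham hearts and 0.93 to 1.65 in MI hearts. The 2 receptors were not in a fixed proportion across groups. The sham hearts of the genotypes did not overlap in this ratio, although they overlapped in each receptor alone. For single genes, 16.5% of all genes tested had no overlap between these sham hearts. The share for ratios of other gene pairs was not computed, so the separation is not read as a genotype difference.

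*Cfp* encodes properdin, which stabilizes the alternative pathway convertase and is made largely by leukocytes. It was at 134 and 123 at baseline, at 223, 336 and 157 after sham surgery and at 825, 512 and 957 after MI in PKM2fl/fl hearts. The PKM2-/- values were 121 and 109.95, then 312, 265 and 275, then 927, 1054 and 1037. Sham and MI hearts did not overlap in either genotype. The log2 fold change was 1.70 ± 0.24 (adjusted p = 3.39e-05) in PKM2fl/fl and 1.82 ± 0.24 (adjusted p = 1.17e-05) in PKM2-/- hearts.

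*Cfb* encodes factor B, the protease of the same convertase, and had the lowest counts of the 9 genes at baseline, from 47.6 to 89.7. After sham surgery it ranged from 153 to 306 in PKM2fl/fl and from 175 to 309.5 in PKM2-/- hearts, and after MI from 309 to 420 and from 273 to 678. The ranges of sham and MI were apart in PKM2fl/fl hearts and overlapped in PKM2-/- hearts, and the log2 fold changes of 0.79 ± 0.34 (adjusted p = 0.0653) and 0.80 ± 0.34 (adjusted p = 0.0568) did not pass. In the GENCODE M39 annotation, *Gm20547* overlaps *Cfb* by 6172 bases on the same strand, and its reads were 1.08 to 1.29 times those of *Cfb* in every library, so the 2 cannot be separated and the level of *Cfb* is uncertain.

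The 3 chains of C1q, the recognition protein of the classical pathway, moved in steps from baseline to sham to MI. *C1qb* was at 673 and 553 at baseline, at 1061, 1344 and 848 after sham surgery and at 2854, 2443 and 2692 after MI in PKM2fl/fl hearts. The PKM2-/- hearts had 606 and 480.1, then 1526, 1138 and 1343, then 3569, 3578 and 3031. No baseline heart overlapped a sham heart and no sham heart overlapped an MI heart. The log2 fold change of MI over sham was 1.32 ± 0.16 (adjusted p = 9.68e-06) in PKM2fl/fl and 1.35 ± 0.16 (adjusted p = 4.85e-06) in PKM2-/- hearts.

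*C1qa* ranged from 396 to 631 at baseline, from 796 to 1386 after sham surgery and from 1643 to 2497 after MI, and *C1qc* from 405 to 577, 750.04 to 1268 and 1595 to 2208. Both had the same order of treatments, with the genotypes overlapping at baseline and after sham surgery. After MI they were 1.88-fold and 1.93-fold higher than after sham surgery in PKM2fl/fl hearts (adjusted p = 0.00051 and 0.000322), below the 2-fold threshold. The folds in PKM2-/- hearts were 1.98 and 1.82 (adjusted p = 0.000207 and 0.000533).

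Because the chains form a single protein, their transcripts were also compared as shares of their sum per kb of canonical transcript. *C1qb* made up 22.7 to 24.3% of the sum in PKM2fl/fl sham hearts, 22.9 to 24.1% in PKM2-/- sham hearts and 21.2 to 24.6% in the 4 baseline hearts. After MI it made up 27.6 to 30.9% in PKM2fl/fl and 27.9 to 30.1% in PKM2-/- hearts, so that every MI heart was above the other 10. The mean share was 5.26 percentage points higher after MI than after sham surgery in PKM2fl/fl and 5.44 points higher in PKM2-/- hearts. The share of *C1qa* was 44.0 to 48.0% after MI and 47.1 to 51.3% in all other hearts, which overlapped when genotypes were pooled. Within PKM2fl/fl hearts it was 44.0 to 46.4% after MI and 47.4 to 49.75% after sham surgery, without overlap. Within PKM2-/- hearts it was 46.9 to 48.0% and 48.65 to 50.4%, also without overlap. The share of *C1qc* after MI and sham surgery overlapped in PKM2fl/fl hearts (25.1 to 27.2% and 26.8 to 28.35%). It did not in PKM2-/- hearts (22.65 to 24.3% and 25.6 to 28.5%). The shares of a heart add up to the whole, so a higher *C1qb* share means a lower share of the other chains together. The lower shares of *C1qa* and *C1qc* are therefore not independent results, and the counts of both genes were higher after MI. Per kb, *C1qa* had the highest level of the 3 in every group, whereas without division by length *C1qb* had the largest share.

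**Figure D2:**
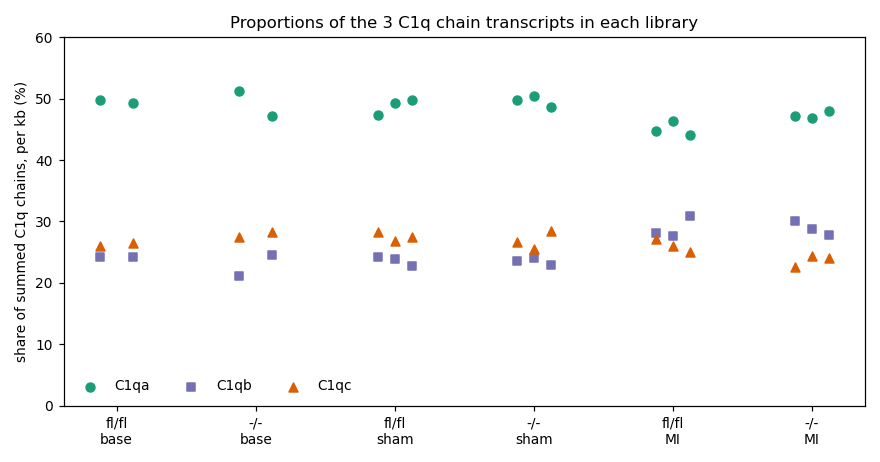
Share of each C1q chain transcript in the sum of the 3, per kb of canonical transcript (vertical axis, %, from 0), for each library by genotype and treatment. The *C1qb* share lies between 27.6 and 30.9% in the 6 MI hearts and between 21.2 and 24.6% in the other 10.

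*C3*, the central component on which all pathways converge, was the only gene of the 9 besides *C4b* with its highest group means after sham surgery. It was at 1919.9 and 2241 at baseline, at 5491, 9005 and 3800.2 after sham surgery and at 5199, 3358 and 3684 after MI in PKM2fl/fl hearts. Counts in PKM2-/- hearts were 2804 and 2018, then 9207, 7462 and 8982, then 3720.1, 4943 and 5483. Every baseline heart was below every operated heart, and sham and MI overlapped in PKM2fl/fl but not in PKM2-/- hearts. MI against sham gave a log2 fold change of -0.52 ± 0.26 (adjusted p = 0.107) in PKM2fl/fl and -0.87 ± 0.26 (adjusted p = 0.00871) in PKM2-/- hearts, both short of a 2-fold change.

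*C4b* encodes C4, which is cleaved downstream of C1q. Its counts were 283 and 403 at baseline, 1213, 1459 and 846 after sham surgery and 722, 751 and 818 after MI in PKM2fl/fl hearts. The PKM2-/- hearts had 524 and 374, then 2066, 1442 and 1747, then 844, 782 and 861. In both genotypes every sham heart was above every MI heart, and every MI heart was above every baseline heart. MI against sham gave -0.58 ± 0.19 (log2, adjusted p = 0.0196) in PKM2fl/fl hearts, under the 2-fold threshold, whereas in PKM2-/- hearts *C4b* fell, by 1.06 ± 0.19 on the log2 scale (adjusted p = 0.000238). The fall was short of 2-fold without PKM2-/- sham replicate 1 (-0.94, adjusted p = 0.00192). When libraries were scaled to their total reads it was -0.55 (adjusted p = 0.139), or -1.07 relative to the median of all genes, which that scaling shifted to 0.516. The same scaling put *C1qa* (adjusted p = 6.06e-05), *C1qc* (adjusted p = 0.000156) and *Cfb* (adjusted p = 0.00207) past the thresholds in PKM2-/- hearts, with log2 fold changes of 0.98, 0.86 and 0.79 relative to that median. Canonical transcripts of *C4b* and *C4a* were 95.97% identical over 5382 bases, so reads could be split between the 2 genes, although *C4a* had a mean of only 1.95 normalized counts per kb against 174 for *C4b*.

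The ratio of *C3* to its fragment's receptor *C3ar1*, per kb, was 8.49 to 13.2 at baseline, 13.1 to 17.9 in PKM2fl/fl sham hearts, 25.8 to 44.1 in PKM2-/- sham hearts and 1.20 to 2.17 after MI. The sham hearts of the 2 genotypes did not overlap in this ratio, and all MI hearts were below all others. This ratio and that of *C5ar1* to *C3ar1* share *C3ar1*, so they are not independent. For each of these genes alone the sham hearts of the genotypes overlapped. How often ratios of other gene pairs are apart was not computed.

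Sham surgery alone, compared with no surgery, was accompanied by higher counts of nearly all 9 genes. These comparisons use the same sham hearts as those of MI against sham, so the 2 sets of values are not independent. In PKM2fl/fl hearts all 9 genes were higher in every sham heart than in every baseline heart, as were 17.4% of all genes tested, but only *C4b* rose (log2 fold change 1.76 ± 0.22, adjusted p = 0.00228), where 0.17% of all genes changed. The others had log2 fold changes from 0.80 (*C1qb*) to 1.46 (*C3*, adjusted p = 0.0556), and all 9 had an unadjusted p under 0.05, as did 8.81% of all genes. Of the 9, 8 rose in PKM2-/- hearts, where 2.66% of all genes changed, 2.06% upward.

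The largest changes of sham surgery in PKM2-/- hearts were those of *C4b* (1.97 ± 0.22, log2, adjusted p = 0.0003), *C3* (1.84 ± 0.29, adjusted p = 0.00267) and *Cfb* (1.82 ± 0.38, adjusted p = 0.0121). The C1q chains had 1.27, 1.30 and 1.20 for *C1qa*, *C1qb* and *C1qc*, *Cfp* had 1.29 and *C5ar1* had 1.25. *C3ar1* was at 0.03 ± 0.27 (adjusted p = 0.977) in PKM2-/- and at 0.96 ± 0.27 (adjusted p = 0.168) in PKM2fl/fl hearts. The difference between these values was -0.93 ± 0.38 (unadjusted p = 0.0253, adjusted p = 0.715), and 0 of the 9 genes passed in this test of the genotype by sham surgery difference, as did 0.0% of all genes. An unadjusted p under 0.05 was found for 1 of the 9, *C3ar1*, by limma, DESeq2 and edgeR, and for 6.29% of all genes by limma.

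The number of genes called with sham surgery rested on single libraries. Without PKM2-/- baseline replicate 2, *C1qb*, *C3* and *C4b* were the 3 genes that rose in PKM2-/- hearts. Without PKM2fl/fl sham replicate 3, 5 genes rose in PKM2fl/fl hearts, and without PKM2fl/fl baseline replicate 1, 0 did. DESeq2 on the recovered reads called 4 in PKM2fl/fl hearts (*C3*, *C4b*, *Cfb* and *C5ar1*).

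**Figure D3:**
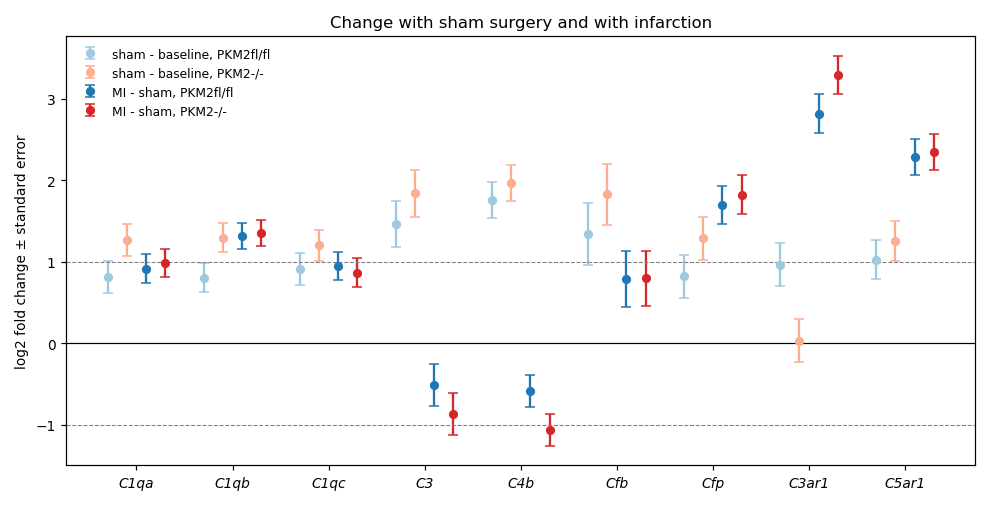
Log2 fold change with its standard error (vertical axis) for each of the 9 genes in sham against baseline and MI against sham hearts of each genotype, with dashed lines at 2-fold. *C3* and *C4b* lie above 0 for sham surgery and below 0 for MI against sham, and *C3ar1* reaches 2.81 and 3.29 after MI.

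Within each treatment, none of the 9 genes passed the thresholds between PKM2-/- and PKM2fl/fl hearts by limma with Benjamini-Hochberg adjustment, which does not show that the levels are alike. After MI 0 of 9 genes passed, where 0.413% of all genes did, and the lowest adjusted p was 0.242. By limma, DESeq2 and edgeR alike, 2 of the 9 had an unadjusted p under 0.05, as did 17.0% of all genes by limma, and 0 were called. *C1qa* was at 2406, 2497 and 2243 in PKM2-/- and at 1952, 1763 and 1643 in PKM2fl/fl MI hearts, a log2 difference of 0.42 ± 0.18 (adjusted p = 0.242). The difference was 0.35 ± 0.16 for *C1qb* (adjusted p = 0.281). All PKM2-/- MI hearts were above all PKM2fl/fl MI hearts for 3 genes (*C1qa*, *C1qb* and *C5ar1*), as was the case for 10.7% of all genes. *C3ar1* was the 1 gene with a lower mean in PKM2-/- MI hearts, at -0.07 ± 0.24, and its difference was 0.30 when libraries were scaled to their total reads.

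After sham surgery 0 of 9 genes passed, where 0.00486% of all genes did, and 3 had an unadjusted p under 0.05 by limma (9.95% of all genes) and 2 by DESeq2 and by edgeR. *C4b* was 1.51-fold and *C3* 1.49-fold higher in PKM2-/- sham hearts (log2 0.60 ± 0.19, adjusted p = 0.267, and 0.57 ± 0.26, adjusted p = 0.473), and *C3ar1* was lower (-0.54 ± 0.24, adjusted p = 0.462). For each of the 9 genes the sham hearts of the genotypes overlapped, whereas 16.5% of all genes had no overlap.

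At baseline 0 of 9 genes passed, where 0.00972% of all genes did, 0 had an unadjusted p under 0.05 by limma (3.64% of all genes), DESeq2 or edgeR, and the log2 differences ran from -0.27 (*Cfb*) to 0.39 (*C3ar1* and *C4b*). For the difference between genotypes in the change with MI, 0 of the 9 genes passed the interaction test, as did 0.0% of all genes. The lowest adjusted p of that test was 0.676, for *C4b* (-0.48 ± 0.27), and 0 of the 9 had an unadjusted p under 0.05 by limma (8.28% of all genes), DESeq2 or edgeR.

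**Figure D4:**
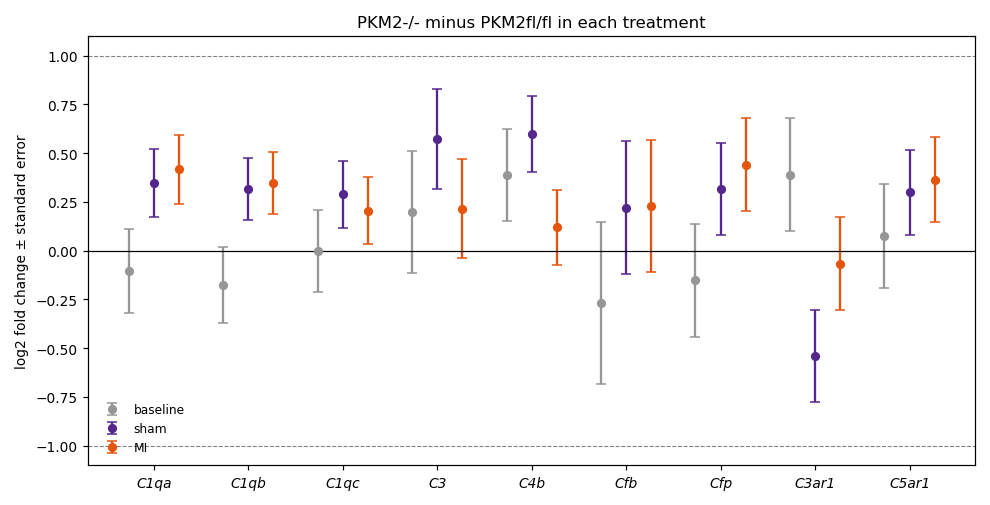
Log2 difference of PKM2-/- minus PKM2fl/fl hearts with its standard error (vertical axis) for each of the 9 genes at baseline, after sham surgery and after MI, with dashed lines at 2-fold. All points lie between -0.54 and 0.60, inside the dashed lines.

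Most markers of macrophages, monocytes and neutrophils were also higher on average after MI than after sham surgery, unlike *C3* and *C4b*, though not all of them passed. The part of these markers in the results was not tested. In bulk tissue, more cells of a type and more RNA per cell cannot be told apart. Of 8 macrophage markers, 4 rose after MI in PKM2fl/fl and 6 in PKM2-/- hearts, and their summed count was 5959 to 9590.3 in sham and 12617 to 20478 in MI hearts. *Cd68* rose (log2 fold change 3.09 and 2.78), whereas *Cd163* and *Lyve1* were lower on average. They were at -0.47 and -0.61 in PKM2fl/fl and at -0.25 and -0.53 in PKM2-/- hearts. The values of *Cd163* had adjusted p-values over 0.05 by limma. In both genotypes 6 of the 8 markers were positive and 2 negative. Among the positive ones, *Mertk* was at 0.97 and 1.04 and *Mrc1* at 0.98 and 1.22 in PKM2fl/fl and PKM2-/- hearts. All 4 monocyte markers rose in both genotypes, from summed counts of 179 to 504 after sham surgery to 2751 to 5300.0 after MI.

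Of 6 neutrophil markers, 3 rose after MI in each genotype. The others, *S100a8*, *S100a9* and *Retnlg*, were at 0.46, 0.43 and -0.44 in PKM2fl/fl hearts. In PKM2-/- hearts they were at 1.53, 1.35 and 0.31, and all these values had adjusted p-values over 0.05 by limma. The summed count after MI was 1329 to 2345 in PKM2fl/fl and 3778 to 4906 in PKM2-/- hearts. In PKM2fl/fl hearts it overlapped that after sham surgery, 231 to 1374.5. Between the genotypes after MI, 0 of the 6 markers passed. By limma, 4 of them had an unadjusted p under 0.05, as did 17.0% of all genes. With sham surgery 6 of 6 rose in PKM2-/- hearts (median log2 fold change 3.40) and 0 of 6 passed in PKM2fl/fl hearts, where the median was 2.93 and all 6 had an unadjusted p under 0.05, and 0 of 6 passed, or had an unadjusted p under 0.05, in the test of the difference between the genotypes. The PKM2fl/fl sham hearts had summed neutrophil counts of 1354, 1374.5 and 231, and the heart with 231 was also the lowest of the 3 in all 9 complement genes except *Cfb*. The heart with 1374.5 was the highest of the 3 in all 9 genes, and without it 7 of the 9 genes rose after MI in PKM2fl/fl hearts, *C1qa*, *C1qc* and *Cfb* being added to the 4 above.

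Of 6 fibroblast markers 2, the collagen genes *Col1a1* and *Col1a2*, rose after MI in both genotypes, whereas *Dcn* was lower (log2 fold change -0.53 and -0.58, adjusted p = 0.0217 and 0.0126). The summed fibroblast count was 18101 to 30785 in sham and 77097 to 118697 in MI hearts. No endothelial or erythroid marker rose or fell in either MI comparison, and 7 and 8 of the 8 cardiomyocyte markers fell in PKM2fl/fl and PKM2-/- hearts. Short of 2-fold, 2 of 4 endothelial markers had an adjusted p under 0.05 by limma in each genotype. *Cdh5* was at 0.76 and 0.75 in PKM2fl/fl and PKM2-/- hearts. *Pecam1* was at 0.25 in PKM2fl/fl and *Kdr* at -0.57 in PKM2-/- hearts.

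A list of 42 other complement genes had 30 that passed the filter. After MI 4 rose and 5 fell in PKM2fl/fl hearts and 5 rose and 5 fell in PKM2-/- hearts, shares of 30 genes that can be read against the 12.4% and 11.1%, and 14.5% and 14.3%, of all genes. The median log2 fold change was -0.016 and -0.24. The genes that rose were all receptors: *Itgam* and *Itgb2*, the chains of complement receptor 3, reached 2.77 ± 0.39 and 2.58 ± 0.26 in PKM2fl/fl hearts, and *Cd93* reached 1.49 ± 0.14. In the knockout they had 2.95, 2.50 and 1.40, and *C5ar2*, a further C5a receptor, rose by 1.17 ± 0.25 (adjusted p = 0.000843). *Itgax*, named after its values were seen, was the fourth gene that rose in PKM2fl/fl hearts (3.51 ± 0.36).

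Of the 9 other classical and lectin pathway genes tested, 0 rose after MI in either genotype, where 12.4% and 14.5% of all genes did. In each genotype 1 fell, where 11.1% and 14.3% of all genes did. *C1s1* and *C1ra*, the proteases that C1q activates, were at -0.54 ± 0.19 and -0.43 ± 0.22 in PKM2fl/fl hearts (adjusted p = 0.0284 and 0.108) and at -0.74 ± 0.19 and -0.52 ± 0.22 in PKM2-/- hearts (adjusted p = 0.00372 and 0.0495). *C2* was at -0.18 and -0.27 and *C4a* at -0.12 and -0.52, with adjusted p-values over 0.05. *Hc*, which encodes C5, the precursor of the ligand of *C5ar1*, did not pass the filter and lay between 0 and 5.77 normalized counts in every library.

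Regulators keep complement from acting on host cells. Of the 9 tested, 0 rose after MI, where 12.4% of all genes did in PKM2fl/fl and 14.5% in PKM2-/- hearts. In PKM2fl/fl hearts 3 fell and in PKM2-/- hearts 2, where 11.1% and 14.3% of all genes did. *Cd59a*, an inhibitor of the membrane attack complex, fell in both genotypes (-1.27 ± 0.16 and -1.34 ± 0.16, adjusted p = 1.49e-05 and 5.76e-06). *Serping1*, the C1 inhibitor, was at -0.50 and -0.64 (adjusted p = 0.0479 and 0.0128), *Cd55* at 0.27 and 0.0068, and *Vsig4*, a receptor for C3 fragments, at 0.58 and 0.40. *Clu* was at 0.64 ± 0.20 (adjusted p = 0.0137) in PKM2fl/fl and at -0.16 ± 0.20 in PKM2-/- hearts, and the difference between them had an unadjusted p of 0.0119 and an adjusted p of 0.511. *Colec11*, *C7* and *Vtn*, named after their values were seen, also fell in both genotypes.

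With sham surgery 0 of the 30 genes changed in PKM2fl/fl and 4 rose in PKM2-/- hearts (*Cfd*, *Cfi*, *C5ar2* and *Itgb2*), and 8 in PKM2fl/fl hearts had an unadjusted p under 0.05, beside the 2.66% of all genes called in PKM2-/- and the 8.81% with such a p in PKM2fl/fl hearts. *Cfd*, factor D of the alternative pathway, was at 4.66 and 7.33 in PKM2-/- baseline hearts and at 53.0, 54.9 and 53.9 after sham surgery (log2 3.00 ± 0.83, adjusted p = 0.0497), and its call was lost with edgeR (adjusted p = 0.0981), with a pseudocount of 0.1 (adjusted p = 0.0652) and without the filter (adjusted p = 0.0843). In the 3 comparisons between genotypes 0 of the 30 genes passed, and 2 had an unadjusted p under 0.05 in each, where 17.0%, 9.95% and 3.64% of all genes did after MI, after sham surgery and at baseline.

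**Figure D5:**
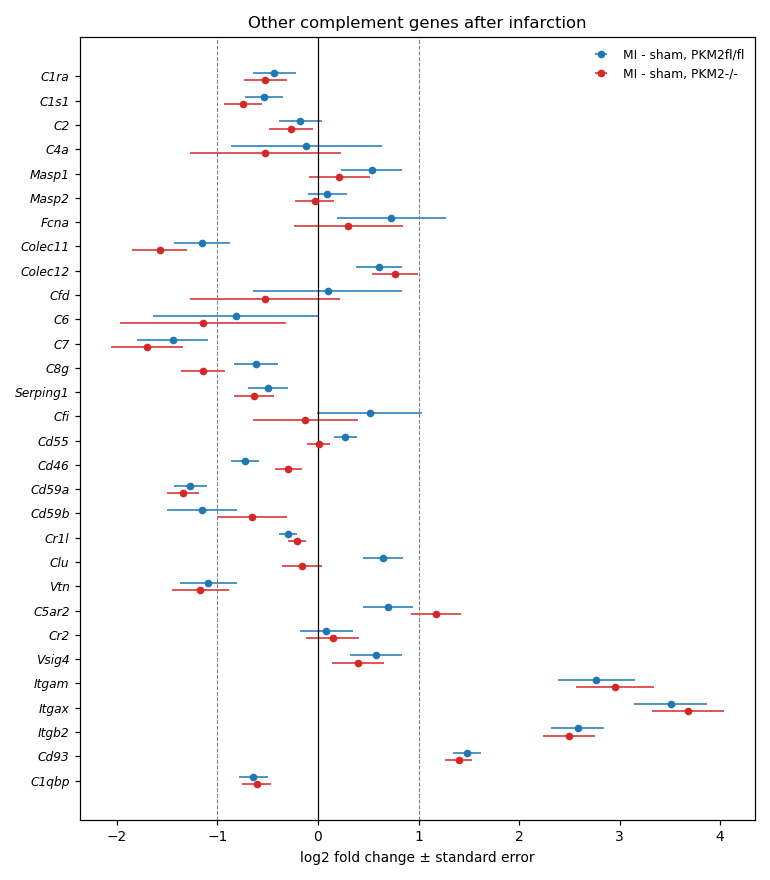
Log2 fold change of MI against sham with its standard error (horizontal axis) for the 30 other complement genes tested, by genotype, with dashed lines at 2-fold. *Itgam*, *Itgax*, *Itgb2* and *Cd93* lie right of the 2-fold line in both genotypes, and *Cd59a*, *C7*, *Colec11* and *Vtn* left of it.

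The pattern of each gene over the 16 hearts was compared with those of the other genes among the 20576 tested, by the root mean square difference of log2 counts after centring. *C3* and *C4b* were each other's nearest gene, at 0.23. The mean of the C1q chains was nearest to *Apoe* (0.18), *Cd300ld* (0.22) and *Sfrp1* (0.22). *C5ar1* was nearest to *Plek* (0.16), *Nckap1l* (0.21) and *Tyrobp* (0.22), *C3ar1* to *Cd300lb* (0.21), *Tacc3* (0.22) and *Ncapg* (0.27), and *Cfp* to *Nfam1* (0.17), *Fcgr2b* (0.19) and *Gm47093* (0.20). *C5ar1* was only at rank 147 for *C3ar1*, at 0.49. *Cfb* was nearest to the overlapping *Gm20547* (0.07), then to *Gm38316* and *Ildr2* at 0.37 and 0.38.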

How the data were processed

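RNA of 16 mouse left ventricles was rRNA-depleted, made into NEBNext Ultra II libraries and paired-end sequenced by the authors. PRINSEQ trimming, HISAT2 alignment against mm10, featureCounts per gene and DESeq2 normalization were the authors' steps. Versions, strand and multi-mapping settings are not given in the sources used here. The deposited signal is a gene's reads over the DESeq2 size factor of its library. Columns of the authors' own baseline comparison (mean, fold change, standard error, test score, p-values) were not used, and 0 per-sample columns were left out. In every library 100.0% of values were whole reads within 0.01 after division by its step.

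Groups came from the sample labels. limma 3.58.1 (R 4.3.3), with a trend, was fitted to log2(signal + 1) of 20576 genes with a mean of at least 10, with all 16 libraries in 6 groups and Benjamini-Hochberg adjustment over all genes, so a log2 fold change understates the change of low genes. A gene was called at an adjusted p under 0.05 and at least 2-fold. The authors' thresholds were the same. The 9 genes were given, and the other complement genes and cell markers were listed, with earlier results of these data known, and 1 listed gene is not reported here. Named genes are the 9, fixed examples of the wider list, markers, *Pkm*, and the 3 nearest genes in pattern. edgeR 4.0.16 and DESeq2 1.42.0 were run on the recovered reads as alternatives. The model was checked on simulated data. Lengths are of canonical transcripts in GENCODE M39, and promoters are from RefSeq. BLAST 2.17.0 compared *C4b* with *C4a*. Of 36 same-numbered library pairs, deviations correlated from -0.196 to 0.126, and 1 was over 0.1. Numbers were not treated as pairs, although such small groups cannot exclude a pairing. Libraries are separate mice.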

Additional observations from a re-analysis of the deposited data

How the results depend on the processing

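Recomputing the log2 fold changes of the 9 complement genes with other scalings, tools, filters or sample sets left 589 values with the same direction and on the same side of the thresholds, moved 15 past the thresholds and 3 short of them, and turned the direction of 15, none of which had been called. Without a fold threshold, 7 genes passed for MI against sham in PKM2fl/fl and 8 in PKM2-/- hearts. For sham against baseline in PKM2fl/fl hearts, where 1 gene rose, 2 did with TMM scaling, with total read scaling and with total read scaling without rRNA loci (added after the data were seen), 4 did with DESeq2 and 0 when only the 2 groups were fitted. The *C1qb* share in PKM2-/- hearts was higher after MI than after sham surgery by 7.0 percentage points without division by length and 4.11 with the union of exons as length, an alternative added after the data were seen. DESeq2 and edgeR left the counts of the other comparisons as given, but other scalings moved genes for MI against sham. In PKM2-/- hearts TMM scaling put *C1qa* past 2-fold (1.0047). Total read scaling, with or without rRNA loci, put *C1qa*, *C1qc* and *Cfb* past the thresholds there and *C4b* short of them. Without rRNA loci *C1qa* (1.01) and *C1qc* (1.05) also passed in PKM2fl/fl hearts. Relative to the median of all genes they were at 0.92 and 0.95.

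Total read scaling, which the rRNA share enters, shifted the median log2 difference of all genes to -0.588 at baseline, -0.325 after sham surgery and 0.36 after MI for PKM2-/- against PKM2fl/fl, and to 0.516 for MI against sham in PKM2-/- hearts. Relative to that shift all 9 genes kept their sign in each comparison. In raw values, directions turned for *C3* (-0.39), *C4b* (-0.20), *C3ar1* (-0.20) and *C5ar1* (-0.51) at baseline, for *C1qb* (-0.0070), *C1qc* (-0.034), *Cfb* (-0.10), *Cfp* (-0.0060) and *C5ar1* (-0.023) after sham surgery, for *C3ar1* after MI (0.30), and for *C4b* in the infarct interaction (0.21). For MI against sham they turned for *Cfd* in PKM2fl/fl (-0.055) and *C2* (0.24) and *Clu* (0.35) in PKM2-/- hearts. Without rRNA loci the values were 0.068 for *C2*, 0.18 for *Clu*, 0.089 for *C3ar1* after MI and -0.072 for *C5ar1* at baseline. *Cd55* in PKM2-/- MI hearts was at -0.0024 with edgeR, and *C1qc* at baseline was at 0.021 with DESeq2 and 0.016 with edgeR. Apart from the scaling shifts, the cause was not tested.

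Leaving out 1 library at a time gave 4 to 7 genes called for MI against sham in PKM2fl/fl, 5 to 6 in PKM2-/- hearts (without PKM2-/- sham replicate 1, *C4b* was not among the 5), 0 to 5 for sham against baseline in PKM2fl/fl, 3 to 8 in PKM2-/- hearts, and 0 throughout for the genotype comparisons and the infarct interaction. In groups left with 1 library, that library is assumed to vary like the other groups. The *C1qb* share was higher after MI by 4.22 to 5.90 and 4.86 to 5.98 percentage points. Directions turned within -0.14 to 0.52 for *Cfb* and -0.16 to 0.025 for *C3ar1* between genotypes after MI. At baseline the ranges that crossed 0 were -0.44 to 0.23 (*C1qa*), -0.26 to 0.25 (*C1qc*), -0.040 to 0.43 (*C3*), -0.72 to 0.18 (*Cfb*) and -0.12 to 0.27 (*C5ar1*). Those for MI against sham were -0.39 to 0.24 and -1.12 to 0.39 for *C4a* in PKM2fl/fl and PKM2-/- hearts, -0.54 to 0.89 for *Cfd* and -0.081 to 0.075 for *Cd55*, and that for sham against baseline was -0.17 to 0.35 for *C3ar1* in PKM2-/- hearts.

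The replicate numbers did not pair the libraries. With the number as a block, the counts called of the 9 genes were as in the fit without it (4 and 5 for MI against sham, 1 and 8 for sham against baseline, 0 elsewhere), and those of all genes were 4813 and 5881, 23 and 500, and 46 for the genotypes after MI. The call of *Cfd* for sham against baseline in PKM2-/- hearts was lost with the block (adjusted p = 0.0853). Comparisons with baseline hearts rest on 2 hearts per genotype.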
